A study of Mus musculus with 8 samples.

Results

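The Wnt ligands, their receptors, their secreted inhibitors and the R-spondin axis were described in naive corneas of 2 inbred mouse strains. The 53 genes were taken by name: 18 ligands (17 Wnt genes and Ndp, which encodes norrin), 15 receptors, 10 secreted inhibitors and 10 genes of the R-spondin axis and of feedback. They are 53 of the 54532 genes in the table, and each was found there through a GRCm38 annotation. Total RNA of 4 corneas of male BALB/c mice (BALB/cN in the methods of the study) and 4 corneas of male C57BL/6N mice was sequenced. All of these mice were untreated inbred animals. The methods give an age in weeks for the phenotyped mice of these strains, and none separately for those used for sequencing. BALB/c mice are albino and C57BL/6N mice are pigmented. The study asked which genes with unequal corneal expression lie in loci for lymphatic vessel growth, which differs between these strains.

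Wnt proteins are lipid-modified secreted signals. They bind a Frizzled receptor together with LRP5 or LRP6, which stabilizes beta-catenin and switches on target genes through TCF/LEF factors, or they act through ROR and RYK receptors on cell shape and polarity without beta-catenin. SFRP proteins and WIF1 bind Wnt proteins outside the cell, DKK proteins block LRP5 and LRP6, and R-spondins raise signalling by removing the ubiquitin ligases ZNRF3 and RNF43 from the Frizzled receptors. In the cornea and limbus, Wnt signals take part in the upkeep of epithelial stem cells, and the dose of signal is held in check by the inhibitors.

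The promoters of 6 genes are shown as a description, and no strain difference below rests on them. Wnt2, Wnt4 and Wnt9a are the ligands called different between the strains for which a promoter was at hand, Wnt3a is the neighbour of Wnt9a, and Wnt11 and Dkk1 carry TCF/LEF words and varied between corneas more than between strains. Each stretch runs from 250 bases before to 50 bases after the gene start of RefSeq (GRCm38.p6), 5′ to 3′ on the strand of the gene. The windows lie at chr6:18030396-18030695 (minus strand), chr4:137277385-137277684 (plus), chr11:59306680-59306979 (plus), chr11:59290702-59291001 (minus), chr7:98834862-98835161 (plus) and chr19:30549447-30549746 (minus). Capitals mark TCF/LEF words and GC boxes, searched on both strands. The TCF/LEF word was CTTTGAA or a variant of it with the ending AT, with the ending TA or with the ending TT, and the GC box was GGGCGG.
Wnt2 promoter: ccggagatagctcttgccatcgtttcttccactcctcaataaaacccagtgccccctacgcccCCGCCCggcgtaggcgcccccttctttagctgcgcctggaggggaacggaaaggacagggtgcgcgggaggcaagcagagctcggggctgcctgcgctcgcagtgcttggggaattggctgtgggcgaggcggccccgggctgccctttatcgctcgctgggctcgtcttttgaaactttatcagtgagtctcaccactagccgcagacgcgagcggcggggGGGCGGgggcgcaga
Wnt4 promoter: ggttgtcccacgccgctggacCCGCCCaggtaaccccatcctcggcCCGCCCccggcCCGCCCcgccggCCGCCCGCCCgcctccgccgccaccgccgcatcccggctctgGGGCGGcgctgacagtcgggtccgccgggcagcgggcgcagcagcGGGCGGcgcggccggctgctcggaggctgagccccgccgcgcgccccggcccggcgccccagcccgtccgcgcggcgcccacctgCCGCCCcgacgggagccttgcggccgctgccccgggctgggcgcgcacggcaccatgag
Wnt9a promoter: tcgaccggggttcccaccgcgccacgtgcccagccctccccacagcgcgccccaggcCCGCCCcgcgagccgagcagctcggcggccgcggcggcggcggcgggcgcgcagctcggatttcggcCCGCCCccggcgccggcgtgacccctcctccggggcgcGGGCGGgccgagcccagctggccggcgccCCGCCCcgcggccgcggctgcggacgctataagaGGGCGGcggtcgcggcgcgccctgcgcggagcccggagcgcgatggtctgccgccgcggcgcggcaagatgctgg
Wnt3a promoter: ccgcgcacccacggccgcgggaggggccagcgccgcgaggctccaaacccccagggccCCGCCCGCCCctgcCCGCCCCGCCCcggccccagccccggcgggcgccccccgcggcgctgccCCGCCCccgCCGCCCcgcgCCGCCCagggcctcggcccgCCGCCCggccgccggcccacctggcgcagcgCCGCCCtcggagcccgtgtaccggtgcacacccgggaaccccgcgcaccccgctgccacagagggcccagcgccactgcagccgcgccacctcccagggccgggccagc
Wnt11 promoter: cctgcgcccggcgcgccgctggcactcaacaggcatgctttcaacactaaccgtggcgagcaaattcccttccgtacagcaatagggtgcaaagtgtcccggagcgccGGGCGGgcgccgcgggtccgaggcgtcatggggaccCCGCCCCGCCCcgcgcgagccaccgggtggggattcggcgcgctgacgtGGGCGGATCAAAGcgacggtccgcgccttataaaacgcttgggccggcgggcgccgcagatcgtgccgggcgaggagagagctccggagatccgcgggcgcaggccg
Dkk1 promoter: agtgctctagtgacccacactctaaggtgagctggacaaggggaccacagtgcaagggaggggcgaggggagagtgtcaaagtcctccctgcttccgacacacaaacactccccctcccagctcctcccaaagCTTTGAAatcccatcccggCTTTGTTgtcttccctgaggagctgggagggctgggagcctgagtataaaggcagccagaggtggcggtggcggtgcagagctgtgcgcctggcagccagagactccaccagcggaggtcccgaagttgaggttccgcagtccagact

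In Dkk1, which encodes an antagonist of LRP5 and LRP6 and is itself a known target of the pathway, the words CTTTGAA and CTTTGTT began 117 and 98 bases before the start. Of 2 Wnt11 windows, the one shown held ATCAAAG, the reverse complement of CTTTGAT, 51 bases before the start and directly next to a GC box, and the other held no TCF/LEF word. The windows of Wnt2, Wnt4, Wnt9a and Wnt3a held none of the 4 TCF/LEF words, and 2, 8, 5 and 9 GC boxes, overlapping ones included. A promoter window was at hand for 36 members (40 windows). A TCF/LEF word was present in 6 of the 40 windows, 1 window each of Dkk1, Fzd7, Ndp, Wnt3, Wnt5b (of 3 windows) and Wnt11, or 15%, against 16.9% of the 32851 windows of all genes. GC boxes, a word chosen after the sequences were seen, were present in 72.5% of the member windows and in 35.7% of all windows. These are matches of letters in the reference genome and were not tested against the strain differences. Windows were not at hand for Dkk3, Dkk4, Fzd2, Fzd3, Fzd6, Fzd8, Lgr5, Lrp5, Lrp6, Rspo2, Rspo3, Sfrp1, Sfrp4, Wnt5a, Wnt7b, Wnt10a and Znrf3.

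Expression is given as the regularized log (rlog) value of the study, which is on a log2 scale, normalized for library size and shrunk towards the mean of the gene where few reads were counted. Read depth per cornea is not in this table, so it is unknown here. The tissue was checked with marker lists. Krt12, the keratin of corneal epithelium, lay between 19.60 and 19.85 in all corneas, and the mean of the 13 epithelial genes between 13.86 and 14.07. Within this list, by the test described below, Epcam was higher in BALB/c (log2 difference 0.73) and Dsg1a was lower (-0.68). Krt24 had almost no signal, with a mean of -0.49. The 13 stromal keratocyte genes split the corneas into 5 with a mean between 12.84 and 13.39 and 3 with a mean between 11.01 and 11.57, which were BALB/c replicate 2 and C57BL/6N replicates 3 and 4. In those 3 corneas 11 of the 13 keratocyte genes and 6 of 7 corneal endothelial genes had their lowest values, and none was at 0. BALB/c replicates 1 and 4 had the highest values of 11 of 12 lens genes and 8 of 8 pigment cell genes, with a mean for the pigment genes of 9.16 and 10.01 against 5.88 to 7.62 in the other 6 corneas. The 8 genes of conjunctiva and limbus had a mean between 8.60 and 9.09 in BALB/c and between 9.63 and 9.90 in C57BL/6N corneas, and 6 of them were lower in BALB/c by the test described below. The other 2, Muc5ac and Krt8, were higher in every BALB/c cornea than in any C57BL/6N cornea. Their mean differences were 2.19 and 0.40 on the log2 scale, and neither passed that test. In whole tissue, fewer cells of a type and less RNA per cell cannot be told apart.

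Of the 53 genes, 51 were not at 0 throughout. Wnt1, which encodes a ligand of brain development, and Rspo4, an R-spondin gene of the nail, were listed at 0 in every cornea. Another 8 had a mean rlog value below 0 and were not tested: the ligands Wnt3, Wnt7a, Wnt9b, Wnt10b and Ndp, the inhibitors Dkk4 and Sfrp4, and Rspo3. These had almost no signal. Wnt3, Wnt9b, Wnt10b and Rspo3 rose above their common lowest value in C57BL/6N replicate 2 alone, and Wnt3 for example was at -0.94 there and at -1.01 in the other 7 corneas. The other 43 genes were tested.

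Levels between genes were compared per length, as the rlog value minus the log2 of the exon length in kilobases. Among the ligands Wnt4, a ligand of kidney and reproductive tract development, had a level of 11.06, followed by Wnt7b at 9.84 and Wnt5a at 9.01. Wnt9a at 8.91 and Wnt10a at 8.49 came next, Wnt2 was at 5.99, and the lowest of the tested ligands was Wnt2b at 1.64. Wnt5a and Wnt9a overlapped between corneas and cannot be ordered, whereas every cornea had more Wnt4 than any other ligand. Fzd6, a receptor best known for planar polarity, led the receptors with a level of 10.34. Ryk, the gene of a receptor tyrosine kinase-like protein, was at 9.14, and the coreceptor gene Lrp5 at 9.01, with Fzd5 just below. Dkk3, a member of the DKK family that does not share their binding of LRP5 and LRP6, was at 11.80 and Sfrp1 at 11.28, both above the leading ligand, although in C57BL/6N corneas Sfrp1 at 10.89 was below Wnt4 at 11.25. Dkk2 stood at 9.83, and the remaining inhibitors were at 5.69 or below. In the R-spondin axis the receptor gene Lgr4 had the highest level, 8.48, before Rnf43 at 8.0 and Axin2 at 7.76, while the R-spondin genes themselves reached 3.73 at most. Fzd9 at 0.15 and Lgr5 at -1.09 were close to the bottom of the scale.

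**Figure D1:**
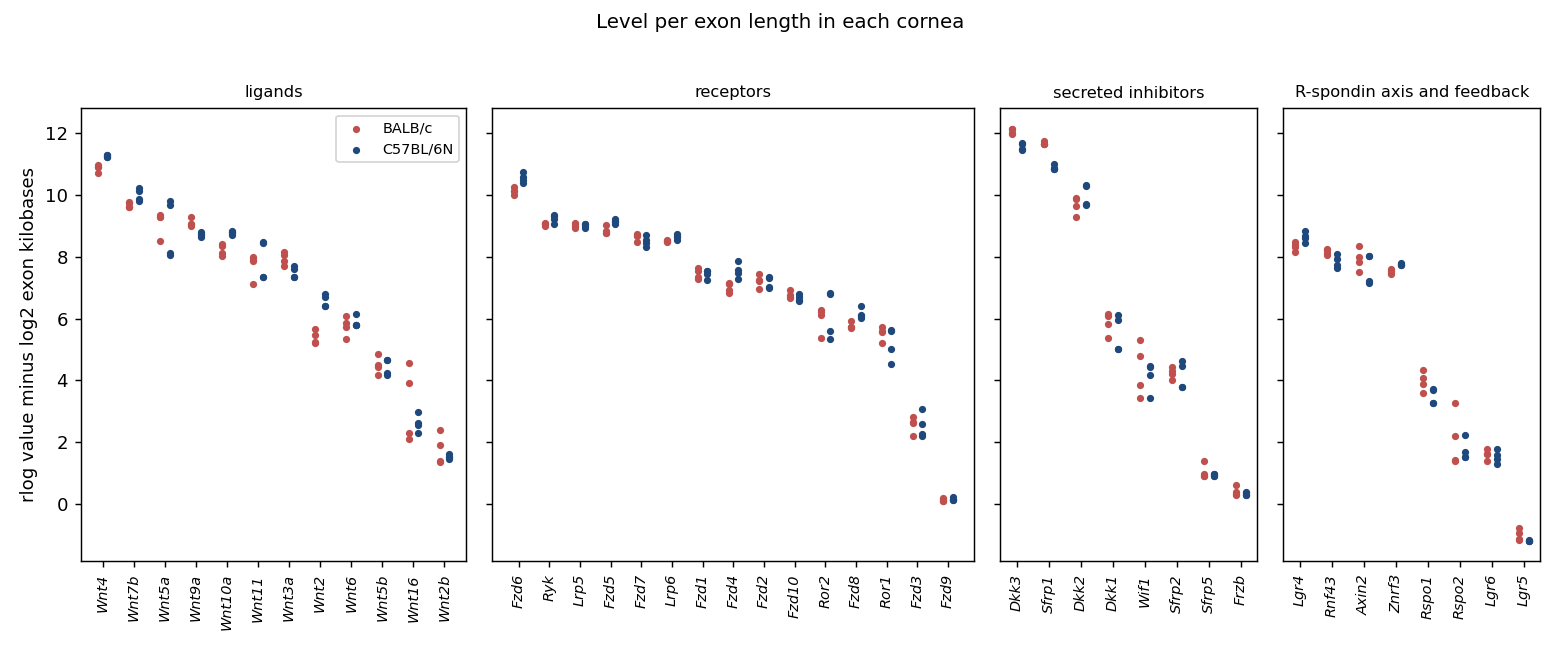
Level per exon length (rlog value minus log2 exon kilobases, vertical axis) of the 43 tested genes by role, with a point for each of the 4 BALB/c (red) and 4 C57BL/6N (blue) corneas. Wnt4, Fzd6, Dkk3 and Lgr4 lead their groups, and the gap between the strains is visible in Sfrp1 and Wnt2.

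When the levels per length of the ligands were returned to a linear scale and summed in each cornea, Wnt4, Wnt7b and Wnt5a together made up between 68.6% and 74.0% of the sum. Wnt4 contributed 39.7% ± 2.14 (SD, n = 4) in BALB/c and 44.3% ± 2.67 (SD, n = 4) in C57BL/6N corneas. Wnt9a contributed 11.7% ± 0.607 (SD, n = 4) against 7.64% ± 0.662 (SD, n = 4), and the ranges of the strains did not overlap. Wnt3a, the classical activator of beta-catenin signalling, made up 5.26% ± 0.669 (SD, n = 4) against 3.31% ± 0.503 (SD, n = 4). Wnt2 was a small part, 0.910% ± 0.178 (SD, n = 4) against 1.75% ± 0.321 (SD, n = 4). The share of Wnt5a ran from 8.09% to 13.8% in BALB/c and from 5.06% to 15.2% in C57BL/6N corneas, and its lowest values were those of the 3 corneas low in keratocyte genes. These shares were not tested, and a rise of 1 ligand lowers the share of the others.

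**Figure D2:**
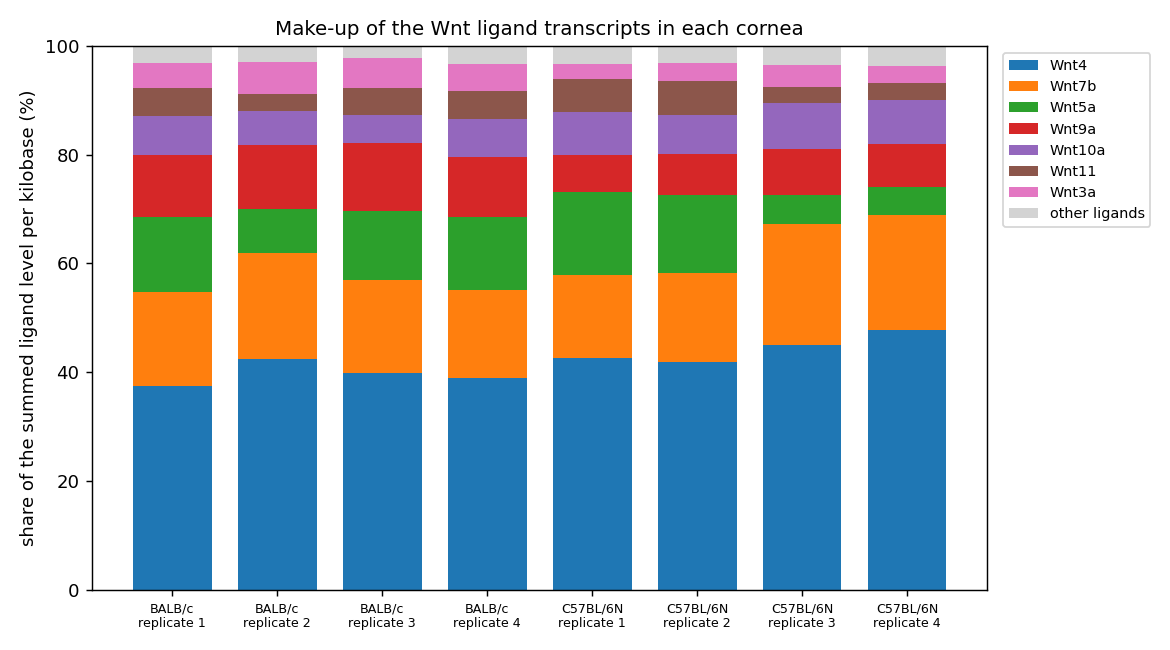
Stacked bars give the share (%, vertical axis) of each ligand in the summed ligand level per kilobase of each of the 8 corneas. Wnt4 is the largest part of every bar, Wnt9a takes 11.01% to 12.4% in BALB/c and 6.83% to 8.37% in C57BL/6N corneas, and Wnt5a shrinks in BALB/c replicate 2 and C57BL/6N replicates 3 and 4.

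The strains were then compared with limma over the 25402 genes whose rlog values averaged 0 or more, and a gene was called at a Benjamini-Hochberg adjusted p-value of 0.01 or less. Differences are BALB/c minus C57BL/6N. Of the 43 genes tested, 6 were called, which is 14.0% against 5.74% of all genes tested. Sfrp1, Dkk3 and Wnt9a were higher in BALB/c corneas (background 2.83%), and Wnt2, Wnt10a and Wnt4 were lower (background 2.91%). By role, 4 of 12 ligands, 2 of 8 inhibitors, 0 of 15 receptors and 0 of 8 genes of the R-spondin axis and feedback were called. Limma gave 12 of the 43 an adjusted p-value of 0.05 or less, 6 of them above 0.01, against 11.2% of all genes. In 12 of the 43, all corneas of a strain lay on one side of the other strain, against 18.3% of all genes tested. In a fit restricted to the 18762 genes averaging log2 of 10 or more, 7 of 39 Wnt genes were called, against 8.3% of all genes. The median difference of the 43 was 0.05, against 0.01 for all genes tested.

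When the limma p-values were recalibrated to an empirical null distribution, 0 of the 43 passed, the smallest adjusted p-value among them was 0.217, and 7 had an unadjusted p-value under 0.05. This recalibration called 0 of the 25402 genes, so its outcome is not particular to the 43. The study recalibrated p-values of DESeq2 instead, and its calls were not used here. After each cornea was centred on its median, 3 remained, 1 higher (Sfrp1) and 2 lower (Wnt2 and Wnt10a), beside 958 of all 25402 genes. Without BALB/c replicates 1 and 4 only Sfrp1 and Wnt10a of the 43 passed in limma, beside 447 of all genes. Without the 3 corneas low in keratocyte genes Sfrp1, Wnt2, Dkk3, Wnt5a, Wnt11 and Ror2 passed, beside 852 of all genes. Each of these fits called fewer genes over the whole table than the main fit, which called 1458. With the epithelial list as a covariate the 6 genes were all called. That list was highest in the 3 corneas low in keratocyte genes, so it is not independent of the keratocyte list. The part of the conjunctival and limbal genes, of which 6 were lower and 2 higher in BALB/c, in the strain differences was not tested.

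**Figure D3:**
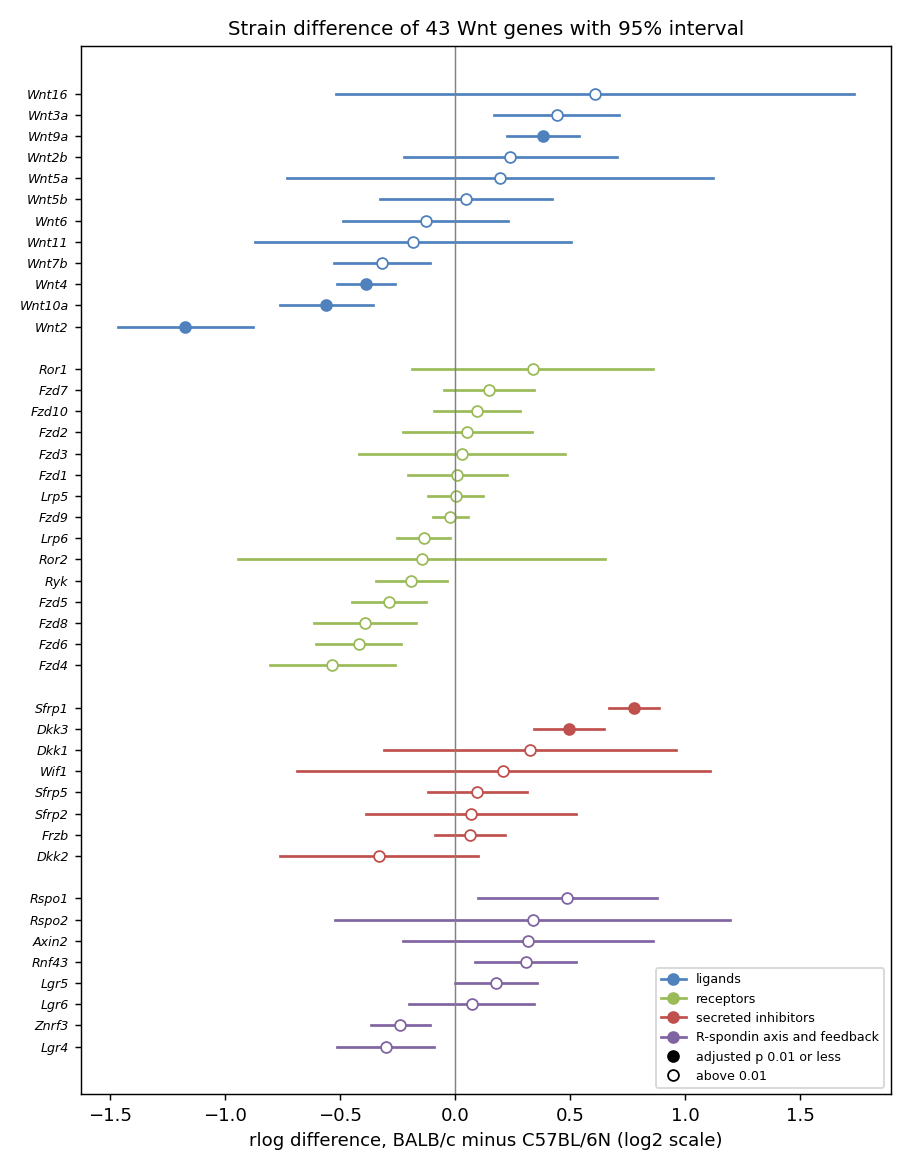
Points give the rlog difference (log2 scale, horizontal axis), BALB/c minus C57BL/6N, of the 43 tested genes by role, with 95% intervals from limma, and filled points mark the called genes. The filled points are Wnt9a, Wnt4, Wnt10a and Wnt2 among the ligands and Sfrp1 and Dkk3 among the inhibitors, and the widest intervals belong to Wnt16, Wnt5a, Wif1 and Rspo2.

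Sfrp1 (ENSMUSG00000031548, chr8:23411502-23449632, plus strand), which encodes a secreted decoy that binds Wnt proteins, had the smallest adjusted p-value of the 43 genes. Its rlog values were 13.78, 13.87, 13.79 and 13.76 in BALB/c replicates 1 to 4 and 13.01, 12.98, 12.98 and 13.11 in C57BL/6N replicates 1 to 4. All 4 BALB/c corneas were above all 4 C57BL/6N corneas, and the corneas of a strain lay close together. The difference was 0.78 (SE 0.0480, 95% interval 0.67 to 0.88, limma adjusted p = 7.81e-06), a 1.71-fold higher value in BALB/c. Without BALB/c replicates 1 and 4, which were high in pigment genes, it was 0.81 (limma adjusted p = 0.000985), and without the 3 corneas low in keratocyte genes it was 0.78 (limma adjusted p = 0.000253). Positions here and below are those of GRCm38. The exact two-sided permutation test of Sfrp1 gave p = 0.0286, which is the smallest that 4 against 4 allows.

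Dkk3 (ENSMUSG00000030772, chr7:112116017-112159057, minus strand) was the other inhibitor called. Its values were 13.88, 13.87, 13.70 and 13.74 in BALB/c replicates 1 to 4 and 13.19, 13.22, 13.41 and 13.39 in C57BL/6N replicates 1 to 4. The strains did not overlap. The difference was 0.50 (SE 0.0680, limma adjusted p = 0.00132), and it was called in each of the 8 fits without 1 cornea, with adjusted p-values between 0.00237 and 0.00639. Without BALB/c replicates 1 and 4 the difference of Dkk3 was 0.48 and no longer passed (limma adjusted p = 0.0315). Dkk2, the third inhibitor by level, did not pass, with a difference of -0.33 (SE 0.192, limma adjusted p = 0.339). Its lowest value, 11.16, was that of BALB/c replicate 2, and its highest, 12.22, that of C57BL/6N replicate 2.

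Wnt2 (ENSMUSG00000010797, chr6:17988940-18030585, minus strand), a ligand known from lung and vessel development, had the largest difference in size among the 43 genes. It stood at 6.65, 6.83, 6.41 and 6.40 in BALB/c replicates 1 to 4 and at 7.58, 7.58, 7.86 and 7.96 in C57BL/6N replicates 1 to 4. Every C57BL/6N cornea was above every BALB/c cornea. The difference of Wnt2 was -1.17 (SE 0.130, 95% interval -1.46 to -0.88, limma adjusted p = 0.000367), or 2.25-fold lower in BALB/c. Leaving out 1 cornea at a time kept the call, and leaving out BALB/c replicates 1 and 4 gave -1.12, which did not pass (limma adjusted p = 0.0150).

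Wnt4 (ENSMUSG00000036856, chr4:137277489-137299726, plus strand), the leading ligand, showed a small but even difference. Values were 12.79, 12.97, 13.02 and 12.96 in BALB/c and 13.35, 13.29, 13.29 and 13.36 in C57BL/6N replicates 1 to 4. The strains were separated, and the C57BL/6N corneas differed among themselves by less than the BALB/c corneas. The difference was -0.39 (SE 0.0562, limma adjusted p = 0.00184), 1.31-fold lower in BALB/c. It held in each fit without 1 cornea. Without BALB/c replicates 1 and 4 it was -0.33 (limma adjusted p = 0.0214), without the 3 corneas low in keratocyte genes -0.39 (limma adjusted p = 0.0250), and after median centring -0.46 (limma adjusted p = 0.0175). Wnt7b, a ligand of epithelia and the second by level, read 11.91, 12.06, 12.04 and 11.91 in BALB/c and 12.10, 12.16, 12.50 and 12.42 in C57BL/6N replicates 1 to 4. Its corneas did not overlap between the strains, with a difference of -0.32 (SE 0.0928) that did not pass (limma adjusted p = 0.0604).

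Wnt10a (ENSMUSG00000026167, chr1:74791516-74804179, plus strand), whose product acts in teeth, hair and other ectodermal organs, was also lower in BALB/c. Its corneas read 9.63, 9.41, 9.31 and 9.70 in BALB/c and 10.14, 10.004, 10.10 and 10.06 in C57BL/6N replicates 1 to 4. The ranges of Wnt10a did not overlap. The difference of -0.56 (SE 0.0906, limma adjusted p = 0.00346) lost its call without BALB/c replicate 2 or without C57BL/6N replicate 1, 3 or 4, where adjusted p-values reached 0.0128, and was -0.71 (limma adjusted p = 0.00335) without BALB/c replicates 1 and 4. Wnt6, its neighbour on chromosome 1 with a start 19624 bases away on the same strand, had a difference of -0.13 (limma adjusted p = 0.677).

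Wnt9a (ENSMUSG00000000126, chr11:59306928-59333552, plus strand), a ligand of joint and skeletal development, was the only ligand called higher in BALB/c. It measured 10.74, 10.79, 11.01 and 10.80 in BALB/c and 10.37, 10.46, 10.53 and 10.44 in C57BL/6N replicates 1 to 4. The strains did not overlap, but the margin was narrow. The difference was 0.38 (SE 0.0693, limma adjusted p = 0.00627), and it passed in none of the 8 fits without 1 cornea, with adjusted p-values between 0.0106 and 0.0218. Wnt3a lies next to Wnt9a on chromosome 11, on the opposite strand, with starts 16176 bases apart. Its values were 9.16, 9.53, 9.60 and 9.34 in BALB/c and 8.80, 9.08, 9.17 and 8.82 in C57BL/6N replicates 1 to 4. BALB/c replicate 1 fell just below C57BL/6N replicate 3, so the ranges of Wnt3a touched. The Wnt3a difference of 0.44 (SE 0.121) was above the threshold (limma adjusted p = 0.0459). A pair of neighbouring ligands therefore had differences of like sign and size, of which 1 was called.

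**Figure D4:**
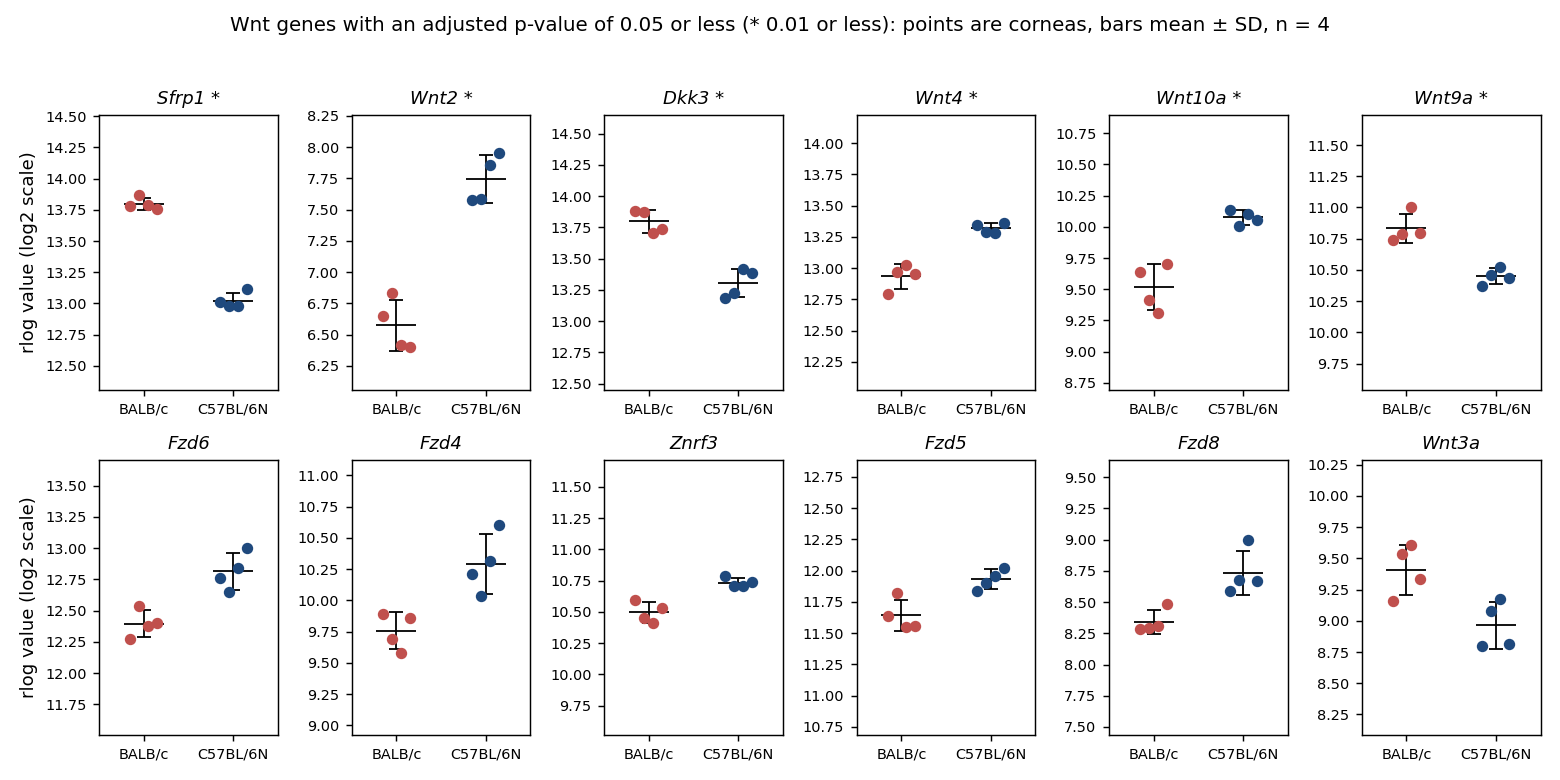
Rlog values (log2 scale, vertical axis, the same span in every panel) of the 12 genes that reached 0.05 in the adjusted limma test, with a point for each cornea and bars for mean ± SD (n = 4), and an asterisk for those that reached 0.01. The strains separate in 11 panels, and in Wnt3a the lowest BALB/c cornea, 9.16, is just under the highest C57BL/6N cornea, 9.17.

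No receptor gene was called, but 4 Frizzled genes lay between the thresholds and were lower in BALB/c in every cornea. Fzd6 stood at 12.27, 12.53, 12.38 and 12.41 in BALB/c and at 12.77, 12.65, 12.84 and 13.01 in C57BL/6N replicates 1 to 4. Its difference was -0.42 (SE 0.0827, limma adjusted p = 0.0101), and without C57BL/6N replicate 2 it passed, with an adjusted p-value of 0.00706. Fzd4, a receptor of norrin in retinal vessels, differed by -0.53 (SE 0.121, limma adjusted p = 0.0199). In Fzd4 C57BL/6N replicate 4 was the highest cornea at 10.60 and BALB/c replicate 3 the lowest at 9.58.

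Fzd5, a Frizzled of eye development, had a difference of -0.29 (SE 0.0717, limma adjusted p = 0.0307), and an adjusted p-value of 0.00909 without BALB/c replicate 2. Fzd8 had -0.39 (SE 0.0983, limma adjusted p = 0.0321). For both the nearest corneas of the strains were close, at 11.82 and 11.83 for Fzd5 and at 8.49 and 8.59 for Fzd8. The coreceptor genes Lrp5 and Lrp6 had differences of 0.00 (95% interval -0.12 to 0.12) and -0.14 (95% interval -0.25 to -0.02, limma adjusted p = 0.137). Ryk was at -0.19 (limma adjusted p = 0.122). The other receptor genes ranged from -0.15 for Ror2 to 0.34 for Ror1, with Fzd7 at 0.15, and all had an adjusted p-value of 0.348 or more.

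In the R-spondin axis Znrf3, the gene of a ubiquitin ligase that removes Frizzled receptors, came nearest to a call. Its values were 10.60, 10.45, 10.41 and 10.53 in BALB/c and 10.79, 10.71, 10.71 and 10.74 in C57BL/6N replicates 1 to 4. The strains of Znrf3 did not overlap, with a difference of -0.24 (SE 0.0573, limma adjusted p = 0.0268). Rnf43, its paralog of like function, pointed the other way at 0.31 (SE 0.0977, limma adjusted p = 0.0812), and the strains overlapped. Lgr4, a receptor for R-spondins, was at -0.30 (SE 0.0942, limma adjusted p = 0.0755). Rspo1 had a difference of 0.49 (SE 0.174, limma adjusted p = 0.117) with its highest value, 5.28, in BALB/c replicate 1. Axin2, the scaffold gene widely read as a gauge of beta-catenin signalling, had a difference of 0.32 (SE 0.242, 95% interval -0.23 to 0.86, limma adjusted p = 0.478), so its level was not shown to differ between the strains.

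For a number of these genes the corneas differed more with their keratocyte genes than with strain. Corneal endothelial genes fell in the same corneas (6 of 7), so these tissues cannot be told apart here. Of the 43 tested genes, 13 had their 3 lowest values in the 3 corneas low in keratocyte genes, or 30.2% against 9.47% of all genes, and 0 had their 3 highest values there, against 5.98%. Wnt5a, the ligand best known for signalling without beta-catenin, had values of 12.26, 11.47, 12.27 and 12.32 in BALB/c and 12.76, 12.64, 11.10 and 11.03 in C57BL/6N replicates 1 to 4. The corneas low in keratocyte genes were the lowest of both strains. The strain difference of Wnt5a was 0.20 (SE 0.412, limma adjusted p = 0.818) over all corneas and -0.42 (SE 0.0516, limma adjusted p = 0.00611) without those 3 corneas, so its sign turned. That fit compared only BALB/c replicates 1, 3 and 4 with C57BL/6N replicates 1 and 2.

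Ror2, which encodes a receptor of Wnt5a, moved likewise, with 8.35, 7.46, 8.21 and 8.28 in BALB/c and 8.87, 8.90, 7.68 and 7.43 in C57BL/6N replicates 1 to 4. Wnt11, another ligand of signalling without beta-catenin, was at 9.91, 9.18, 9.98 and 10.03 in BALB/c and 10.54, 10.49, 9.40 and 9.40 in C57BL/6N replicates 1 to 4. In each of these genes the keratocyte-poor corneas lay apart from the rest, and among the 5 other corneas C57BL/6N was above BALB/c. Without the 3 corneas the strain differences were -0.61 for Ror2 (limma adjusted p = 0.00572) and -0.54 for Wnt11 (limma adjusted p = 0.00422), against -0.15 and -0.18 over all corneas. In this fit the keratocyte genes Kera (-0.46), Dcn (-0.47) and Col12a1 (-0.28) were themselves called lower in BALB/c. Of the keratocyte list only Ogn (0.02) and Pdgfra (0.16) were higher, and neither was called. The part of keratocyte or endothelial content in the differences of Wnt5a, Ror2 and Wnt11 was not tested.

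Axin2 was also lowest in these 3 corneas, with 10.45, 9.98, 10.28 and 10.80 in BALB/c and 10.48, 10.48, 9.68 and 9.60 in C57BL/6N replicates 1 to 4. Dkk1, whose promoter holds the TCF/LEF words shown above, was at 7.36, 6.65, 7.42 and 7.12 in BALB/c and 7.23, 7.41, 6.30 and 6.29 in C57BL/6N replicates 1 to 4. Dkk1 too had its lowest values there. Among the 5 other corneas the highest Axin2 value was that of BALB/c replicate 4, and without the 3 corneas the strain differences of Axin2 and Dkk1 were 0.03 and -0.02. The epithelial list was highest in these 3 corneas, with a mean between 14.01 and 14.07 against 13.86 to 13.99 in the 5 other corneas.

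The mean of the keratocyte list was then entered as a covariate beside strain. The slope of a gene on this list was positive and called in 10 of the 43 genes, against 5.16% of all genes, and negative in 1, against 1.54%. In log2 units per unit of the list the slopes were 0.64 for Wnt5a, 0.55 for Ror2, 0.47 for Wnt11, 0.41 for Dkk1, 0.36 for Axin2, 0.33 for Ror1, 0.29 for Sfrp2, 0.28 for Dkk2, 0.27 for Fzd3 and 0.17 for Fzd2. Wnt7b, the second ligand by level, had the negative slope, -0.12 (limma adjusted p = 0.00504). As the corneas fall into 5 and 3, a slope is in effect the gap between these sets and no graded relation.

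With the covariate, 15 of the 43 genes were called between the strains, 4 higher and 11 lower in BALB/c, against 9.38% of all genes. These included the 6 genes called without it. The other 9 were Rnf43, which was higher, and Dkk2, Fzd5, Fzd6, Ror2, Ryk, Wnt7b, Wnt11 and Znrf3, which were lower. Fzd6 had a difference of -0.36 (limma adjusted p = 0.000727), Wnt7b of -0.25 (limma adjusted p = 0.00428) and Rnf43 of 0.37 (limma adjusted p = 0.00149) in this fit. Sfrp1, Wnt2 and Wnt4 changed little, to 0.79, -1.09 and -0.38. Wnt5a, which passed when the 3 keratocyte-poor corneas were left out, was not called here, with -0.16 (limma adjusted p = 0.263).

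**Figure D5:**
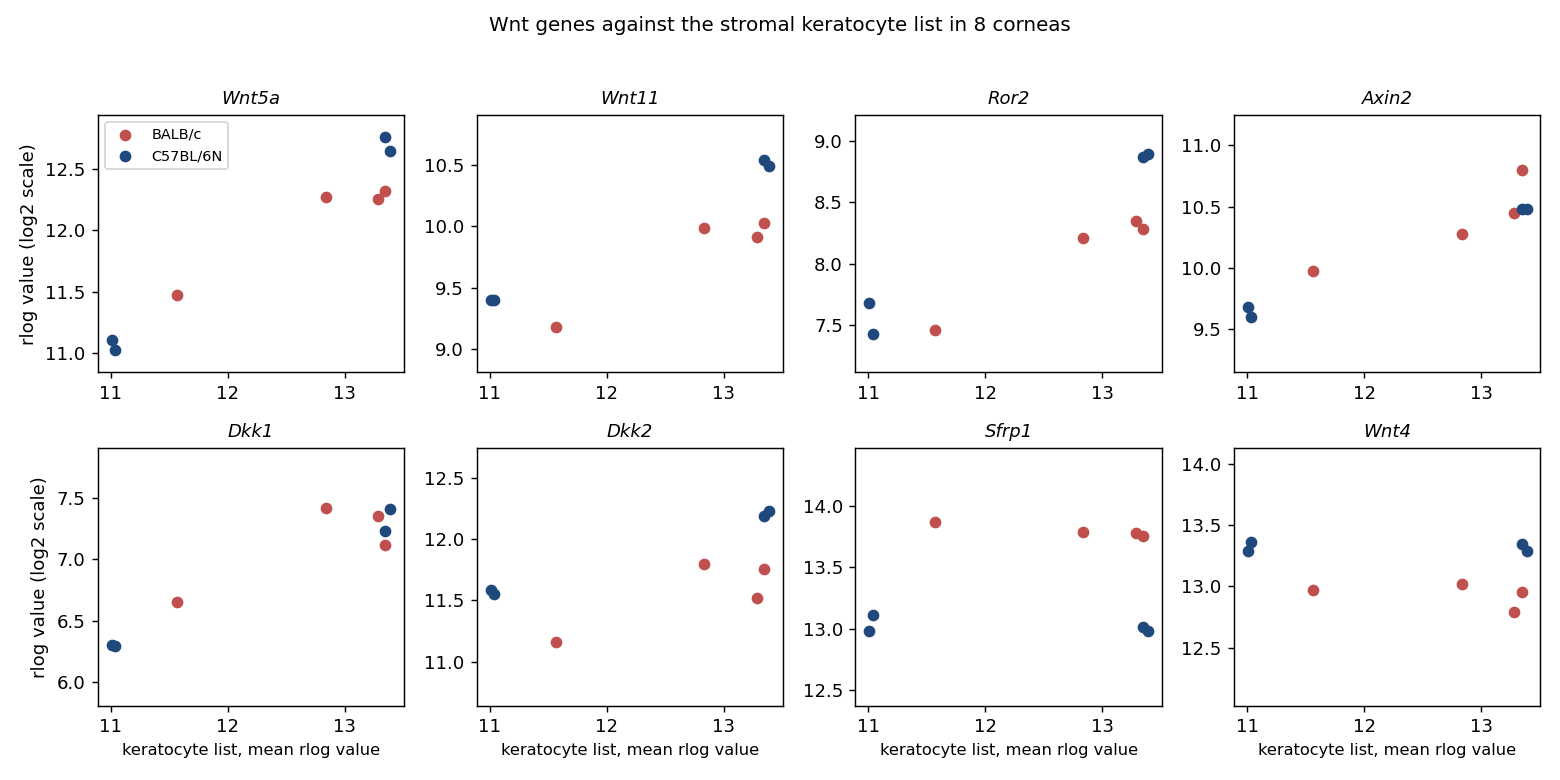
Rlog values (log2 scale, vertical axis) of 8 genes against the mean rlog value of the 13 keratocyte genes (horizontal axis) in the 4 BALB/c (red) and 4 C57BL/6N (blue) corneas. Wnt5a, Wnt11, Ror2, Axin2, Dkk1 and Dkk2 are, within each strain, lower in the 3 corneas at the left, whereas Sfrp1 and Wnt4 split by strain across the whole axis.

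A second set of genes moved with BALB/c replicates 1 and 4. Wnt16, Wnt2b, Wif1, Rspo1 and Lgr5 had their 2 highest values in these corneas, 5 of 43 genes, or 11.6% against 8.92% of all genes, which is near the background. Wnt16 stood at 6.03, 4.41, 4.23 and 6.70 in BALB/c and at 4.74, 4.41, 5.10 and 4.68 in C57BL/6N replicates 1 to 4. It had the largest positive strain difference of the ligands, 0.61 (SE 0.501, limma adjusted p = 0.511), which was -0.41 (limma adjusted p = 0.335) without BALB/c replicates 1 and 4. Wif1, the gene of a secreted Wnt-binding inhibitor, had 6.06 and 6.59 in these corneas, 4.71 and 5.13 in the other BALB/c corneas and 4.71 to 5.75 in C57BL/6N corneas. Rspo2 was highest in BALB/c replicate 4 at 5.63. A further fit took the keratocyte and pigment lists as covariates. Its slope on the pigment list was called in Wnt16 (0.60, limma adjusted p = 3.44e-06), Rspo2 (0.38), Wif1 (0.32) and Wnt2b (0.21). In Rspo1 and Lgr5 the slope was not called. There the strain difference of Wnt16 was 0.23 (limma adjusted p = 0.187). As BALB/c replicates 1 and 4 stood apart on that list, the slope mostly reflects the gap to them. Whether lens or pigment tissue lies behind these values was not tested.

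Genes of the pathway outside the 53 were taken from 5 lists with 101 genes, of which 97 were tested and 6 called, or 6.19% against 5.74% of all genes. In the list of Wnt secretion and surface cofactors (2 of 18 called), Gpc6, which encodes a glypican, had the largest difference. It was at 10.77, 10.86, 10.77 and 10.82 in BALB/c and at 8.37, 8.37, 7.20 and 7.53 in C57BL/6N replicates 1 to 4, a difference of 2.94 (SE 0.242, limma adjusted p = 5.02e-05). The BALB/c corneas of Gpc6 were alike and far above the others. Gpc3, another glypican gene, went the other way, with -0.57 (SE 0.0584, limma adjusted p = 0.000214).

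The counts of the lists below stand beside 5.74% of all genes tested, and no list was tested as a set. Among 20 target and feedback genes 2 were called. Sox9, the gene of a transcription factor of progenitor cells, was higher at 0.69 (SE 0.0543, limma adjusted p = 3.64e-05), and Myc was lower at -0.42 (SE 0.0652, limma adjusted p = 0.00263). Ccnd1, which encodes cyclin D1, had 0.30 (limma adjusted p = 0.0116) and did not pass. Of the beta-catenin core 1 of 20 was called, Btrc, whose product marks beta-catenin for degradation, with -0.48 (SE 0.0661, limma adjusted p = 0.00142). Of 24 genes of planar polarity and other effectors 1 was called, Camk2d, a calcium-dependent kinase gene, with 0.79 (SE 0.135, limma adjusted p = 0.00451), which passed in 3 of the 8 fits without 1 cornea. None of 15 TCF factors and cofactors was called, and 1 of them, Tle3, reached 0.05 (limma adjusted p = 0.0218).

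The keratocyte list divided these lists too. A positive slope was called in 20 of the 97 genes, against 5.16% of all genes, and a negative slope in 4, against 1.54%. The 3 corneas low in keratocyte genes held the 3 lowest values of 20 of the 97 genes, against 9.47% of all genes, and the 3 highest values of 15, against 5.98%. A positive slope was found in 8 of 18 genes of secretion and surface cofactors, with 0.51 for Notum, which encodes an enzyme that removes the lipid of Wnt proteins, 0.60 for Apcdd1 and 0.59 for Reck. It was found in 4 of 20 targets, 3 of 15 TCF factors and cofactors (Tcf7 at 0.50, Lef1 at 0.50 and Pygo1 at 0.45) and 0 of 20 genes of the beta-catenin core, where 1 negative slope was called (Csnk1d at -0.09). Planar polarity and other effectors went both ways, with 5 positive and 3 negative slopes among 24 genes. The negative ones were -0.13 for Daam1, -0.11 for Scrib and -0.10 for Celsr1.

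Some genes overlap other annotated genes, and whether counting used the strand was not stated in the sources used here. An antisense gene opposite Wnt5a, Gm2670, had a mean rlog value of 4.57, one opposite Wnt7b, AU022754, 6.49, and Fbxl14, which overlaps Wnt5b on the other strand, 10.62. For Wnt5b, with a mean of 5.89 in BALB/c and 5.85 in C57BL/6N corneas, reads of Fbxl14 could weigh on the value. The values of Fzd6 and Fzd5 share their locus with Gm26704 at 5.71 and Gm38058 at 4.13, which are far lower than the genes themselves.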

How the data were processed

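Total RNA of 4 BALB/c and 4 C57BL/6N corneas was sequenced from strand-specific libraries. The authors aligned trimmed reads to a GRCm38 pseudo-genome for each strain (TopHat2 2.1.1), counted them on the exons of each gene (HTSeq 0.7.1) and deposited log2 values made by the rlog transformation of DESeq2 1.30. The deposited values hold no counts.

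The comparison of strains used limma 3.58.1 (R 4.3.3), in which the variance prior followed the mean, on all genes averaging 0 or more, and p-values were adjusted by Benjamini-Hochberg. A permutation test of a single gene was exact (scipy 1.17.1). Exon lengths were taken from a GRCm38 annotation. Named in full were genes that reached 0.05 and, for each role, the 3 highest levels and the 2 largest differences of either sign. Others named beside a count were chosen after their values were seen. The 53 genes and all lists were chosen with earlier results of these data known. Whether any corneas shared a mouse was not given in the sources used here, so p-values measure the spread between these corneas. In simulated data for this comparison (25402 genes), 78 of 97 genes changed by 1 and 97 of 103 changed by 2 (log2) were called. Changes smaller than 1, the size of all called Wnt genes except Wnt2, were not simulated. The simulated noise was independent between genes and held no shifts in tissue composition. Other filters, scalings, variance priors, an empirical null, a replicate block, single corneas left out and keratocyte or epithelial covariates were tried. Leaving out sets of corneas and a joint keratocyte and pigment covariate were chosen after seeing the data.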

Additional observations from a re-analysis of the deposited data

Results flagged for a closer look

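In 8 of 118 groups of 4 corneas the highest or lowest cornea stood apart from the other 3 by more than the 95% critical value of Dixon's test (the gap to the nearest cornea over the range), where chance gives about 5.9 such groups. BALB/c replicate 2, which was low in keratocyte genes, was the low cornea for Wnt5a (11.47, nearest 12.26), Wnt11 (9.18, nearest 9.91), Ror2 (7.46, nearest 8.21) and the corneal endothelium list (mean 11.91, nearest 12.50). BALB/c replicate 4, which was high in pigment genes, was the high cornea for Fzd8 (8.49, nearest 8.31) and Sfrp5 (2.31, nearest 1.89). C57BL/6N replicate 1 was the high cornea for Wnt6 (7.29, nearest 6.92) and for Lgr5 (2.21, nearest 2.17), where the whole range was very small. The part of tissue composition in these values was not tested.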

How the results depend on the processing

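Of the 53 genes, 6 were called with adjusted p-values of 0.01 or less, and the count under other settings was as follows. Median centring gave 3 (2 ligands, 1 inhibitor) and 958 of all genes against 1458, the empirical null 0 (no ligand, inhibitor or pathway gene, and 0 of all genes), the keratocyte covariate 15 (4 receptors, 2 of the R-spondin axis, 12 pathway genes, 2382 of all genes) and the epithelial covariate 10 (2 receptors, 1 of the R-spondin axis, 12 pathway genes, 2221 of all genes). The joint keratocyte and pigment covariate gave 18 (7 ligands, 6 receptors, 2 of the R-spondin axis, 14 pathway genes, 2751 of all genes), and a threshold of 0.05 gave 12 (4 receptors, 1 of the R-spondin axis, 12 pathway genes, 2842 of all genes). Without BALB/c replicates 1 and 4 it was 2, Sfrp1 and Wnt10a (1 ligand, 1 inhibitor, 3 pathway genes, 447 of all genes). Without the 3 corneas low in keratocyte genes it was 6, with 1 receptor and 852 of all genes, and the difference of Wnt5a became -0.42 from 0.20. With the keratocyte covariate the difference of Wnt5a was -0.16 and was not called. A robust prior, a mean of at least log2 of 10 and quantile normalization each gave 1 receptor, Fzd6. Apart from the covariates and left-out corneas, whose construction changes the spread or the samples, the cause was not tested. Leaving out 1 cornea gave 4 to 6 genes (ligands 2 to 3, receptors 0 to 1, inhibitors 2, R-spondin axis 0, pathway genes 4 to 7, all genes 953 to 1163). With the replicate number as a block, 1 gene was called, Sfrp1 (0 ligands, 1 inhibitor, 3 pathway genes, 554 of all genes). The deviations of same-numbered corneas from their strain means correlated at 0.31, -0.53, -0.20 and -0.45. These deviations also hold the differences in keratocyte and pigment genes between corneas. They therefore cannot decide whether the replicate numbers pair the corneas. Over 49 single genes and 1123 comparisons with an alternative, 1031 kept their side of the threshold, 53 lost a call, 38 gained one and 1 turned its sign with a call. The 1031 include 80 whose sign changed with no call in either fit.

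Depth is unknown, rlog values understate differences of weakly expressed genes such as Lgr5, Fzd9 and Wnt2b, and genes with a mean below 0 could not be compared. The 4 corneas of a strain include corneas low in keratocyte genes or high in pigment genes, so a gene of 1 cell layer can differ between corneas by more than between strains, and a missed call does not show equal levels. Levels per length use the exons of all transcripts of a gene, which overstates the length where a short isoform is used. Of all genes, 1730 had an unadjusted p-value under 0.05 by the empirical null in limma, and the smallest adjusted p-value was 0.130.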
